A study of Mus musculus with 6 samples.

Results

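The genes described here encode ion channels, neurotransmitter and other G protein-coupled receptors, and the cadherins, semaphorins, plexins and Robo receptors that cells use to adhere and to read guidance cues. They were taken by symbol from a table of whole-liver RNA-seq values: a protein-coding gene belonged to the set if its symbol began with the stem of one of these families (Kcn, Cacn, Scn, Trp, Clcn, Clic, Ano, P2r, Gabr, Gri, Chrn, Adr, Htr, Robo, Slit, Sema, Plxn, Pcdh, Cdh, Nrxn, Nlgn, Ntrk, Adgr or Gpr), with Gpr182 left out. This gave 76 of the 3201 genes in the table, and the other 2365 protein-coding genes served as the comparison. The livers came from male mice on a C57BL/6 background. In 3 of them Fgf18 was flanked by loxP sites and otherwise intact (Fgf18 f/f, labelled IR), and in the other 3 the floxed gene was deleted by Cre under the GFAP promoter, the study's means of removing it from hepatic stellate cells (Fgf18△HSC, labelled 18KO). Every mouse, controls included, had 1 h of partial warm ischemia of the liver followed by 6 h of reperfusion, and no sham-operated liver was analysed here. The Gfap promoter is also used by glial cells, so Cre need not be confined to stellate cells. Fgf18 itself was not analysed here, so the labels could not be checked against the deleted gene. The table is a selection: each of the 3201 genes had already passed a log2 fold change of 1 in either direction and an unadjusted p of 0.05 when its authors compared these same 6 livers. Every count of changed genes below therefore describes a list that was chosen for change, and says nothing of family members outside it. The p-values and intervals of single genes come from the livers on which the genes were chosen. They describe the spread between those livers and are no independent evidence of a difference.

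Ion channels open a pore for potassium, sodium, calcium or chloride when voltage, a ligand, calcium or lipid moves them, and most carry auxiliary subunits that tune the pore. Metabotropic receptors instead pass a hormone, transmitter or nucleotide signal to G proteins, and adhesion G protein-coupled receptors do so from contacts with matrix or neighbouring cells. In the liver, adrenergic and nucleotide receptors on hepatocytes drive calcium and cyclic AMP signals that control glucose output, VE-cadherin seals endothelial contacts, and most of the other families are better known from nerve and muscle.

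Most of the set was higher in the Fgf18△HSC livers. Of the 76 genes 67 had higher values in Fgf18△HSC than in Fgf18 f/f livers and 9 lower, 88.2% higher against 65.4% of the other protein-coding genes. A gene was called when limma on log2(TPM + 0.1), fitted over all 3201 genes, gave an adjusted p (Benjamini-Hochberg) under 0.05 together with a log2 fold change beyond 1 in either direction, where TPM is reads per kilobase of gene, with every library brought to a common total. By this rule 27 genes rose and 7 fell, together 44.7% of the set, beside 71.7% called over the whole list (41.6% higher and 30% lower) and 70.2% of the other protein-coding genes. On the adjusted p alone 68 of the 76 passed, beside 97.3% of all listed genes. The genes of the set lay lower in level than the list around them. Under 1 TPM 33.3% of the set and 55.4% of all listed genes were called, with a median level there of 0.115 TPM in the set and 0.264 TPM in the other protein-coding genes. At 1 TPM or more the shares were 87.5%, or 14 of 16 genes, and 92%. These shares were not tested against each other. Its median log2 fold change was 0.82, and that of all listed genes 0.88. The groups did not overlap in 72 of the 76 genes, 94.7% beside 96.3% of all listed genes. The exceptions were Adgrg6, Robo2, Gabrg1 and Ntrk3. The balance of rises and falls depended on how the livers were scaled: with each liver divided by a scale factor, the median over the listed genes of its ratio to the average liver, 4 genes were called higher and 8 lower, beside 43.6% of all listed genes called. The 4 were Clic3, Scn8a, Gpr75 and Pcdh12, and Clcn2 joined the 7 lower genes. That rescaling moved the median log2 fold change by -0.88 over all listed genes and by -0.54 over the 76, and it turned the direction of Adgre1 and Kcnj2. Its factors came from genes selected for change, 65.1% of them higher, so it lowers Fgf18△HSC values by construction. It therefore cannot show which scale is right. The pseudocount also changed the counts. With 1 TPM in place of 0.1 TPM 5 genes were called higher and 1 lower, beside 26% of all listed genes called, and with 0.01 TPM 59 and 8, beside 95.1%. Fitted as recovered reads with limma-voom, an alternative added once the data had been seen, 61 were called higher and 7 lower of 70, beside 96.9% of the listed genes that could be so fitted. The plot of fold changes by family shows the genes on the deposited scale.

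**Figure D1:**
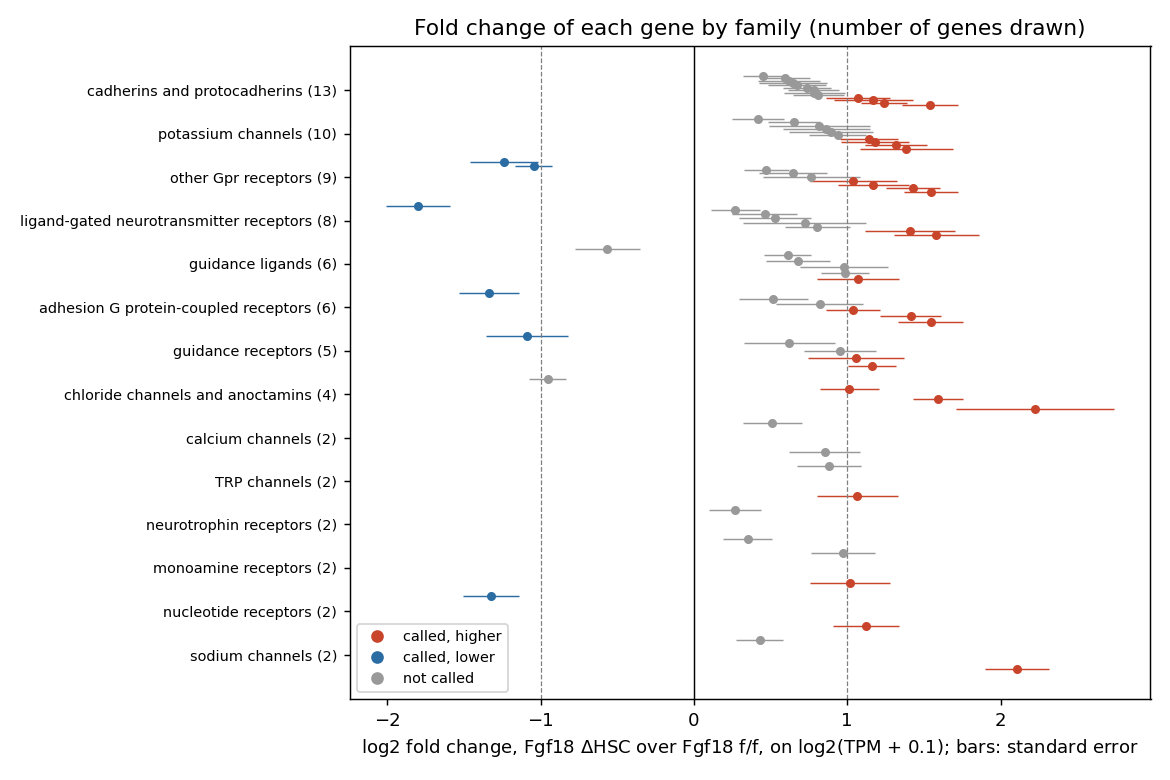
Log2 fold change (Fgf18△HSC over Fgf18 f/f, on log2(TPM + 0.1), 3 livers each) of 73 of the 76 genes, each with its standard error (SE) as a bar, in 14 families. The 27 genes called higher (red) lie in 12 of the families, the 6 drawn genes called lower (blue) lie in 5, and grey points were not called. In livers rescaled by the median ratio all points shift left and Adgre1 and Kcnj2 fall below 0.

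Most of the set was barely expressed. Over the 6 livers 60 of the 76 genes had a mean under 1 TPM, and 53 were under 1 TPM in every liver. In Fgf18 f/f livers the mean of 63 genes was under 1 TPM, and in Fgf18△HSC livers that of 58. The median gene of the set stood at 0.161 TPM, and the median of the other protein-coding genes at 0.834 TPM. Direction went with level. Of the 60 genes under 1 TPM 57 were higher in Fgf18△HSC livers and 3 lower, with 18 called higher and 2 lower. Of the 16 genes at 1 TPM or more 10 were higher and 6 lower, with 9 called higher and 5 lower. The other protein-coding genes had the same tilt, with 88.7% higher under 1 TPM and 39.2% higher at 1 TPM or more. Within the class of 0.1 to 1 TPM 97.1% of the set and 86.4% of the other protein-coding genes were higher. The shares were 92.3% and 96.5% under 0.1 TPM, and 60% and 53.8% between 1 and 10 TPM. Below 0.1 TPM the pseudocount of 0.1 TPM holds the fold change down, and 3.85% of the 26 genes there were called, beside 12.3% of all listed genes of that level. On recovered reads with limma-voom all 25 of these genes that could be fitted were called, beside 96.9% of all listed genes so fitted. The list had been chosen for change on the same livers, so that outcome was close to fixed in advance. Summed over the 76 genes the values were 58.3, 57.1 and 55.3 TPM for Fgf18 f/f against 85.0, 76.7 and 97.5 TPM for Fgf18△HSC. In bulk liver, fewer cells of a type and less RNA per cell cannot be told apart, and this holds for every gene below.

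**Figure D2:**
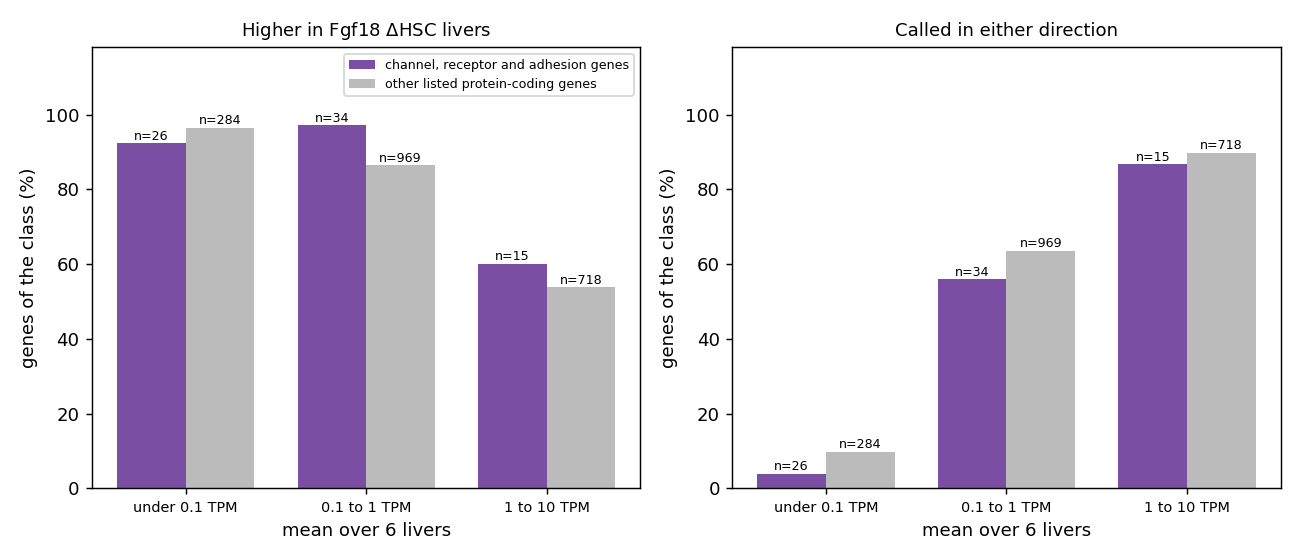
Share of genes higher in Fgf18△HSC livers (left) and share called in either direction (right), in percent, by mean level over the 6 livers, for the 76 channel, receptor and adhesion genes (purple) and the other listed protein-coding genes (grey), with the number of genes above each bar. Of the genes between 1 and 10 TPM 60.0% of the set were higher, against 97.1% between 0.1 and 1 TPM. The single gene above 10 TPM, Cdh5, is not drawn, and the shares are for livers on the deposited scale.

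**Figure D3:**
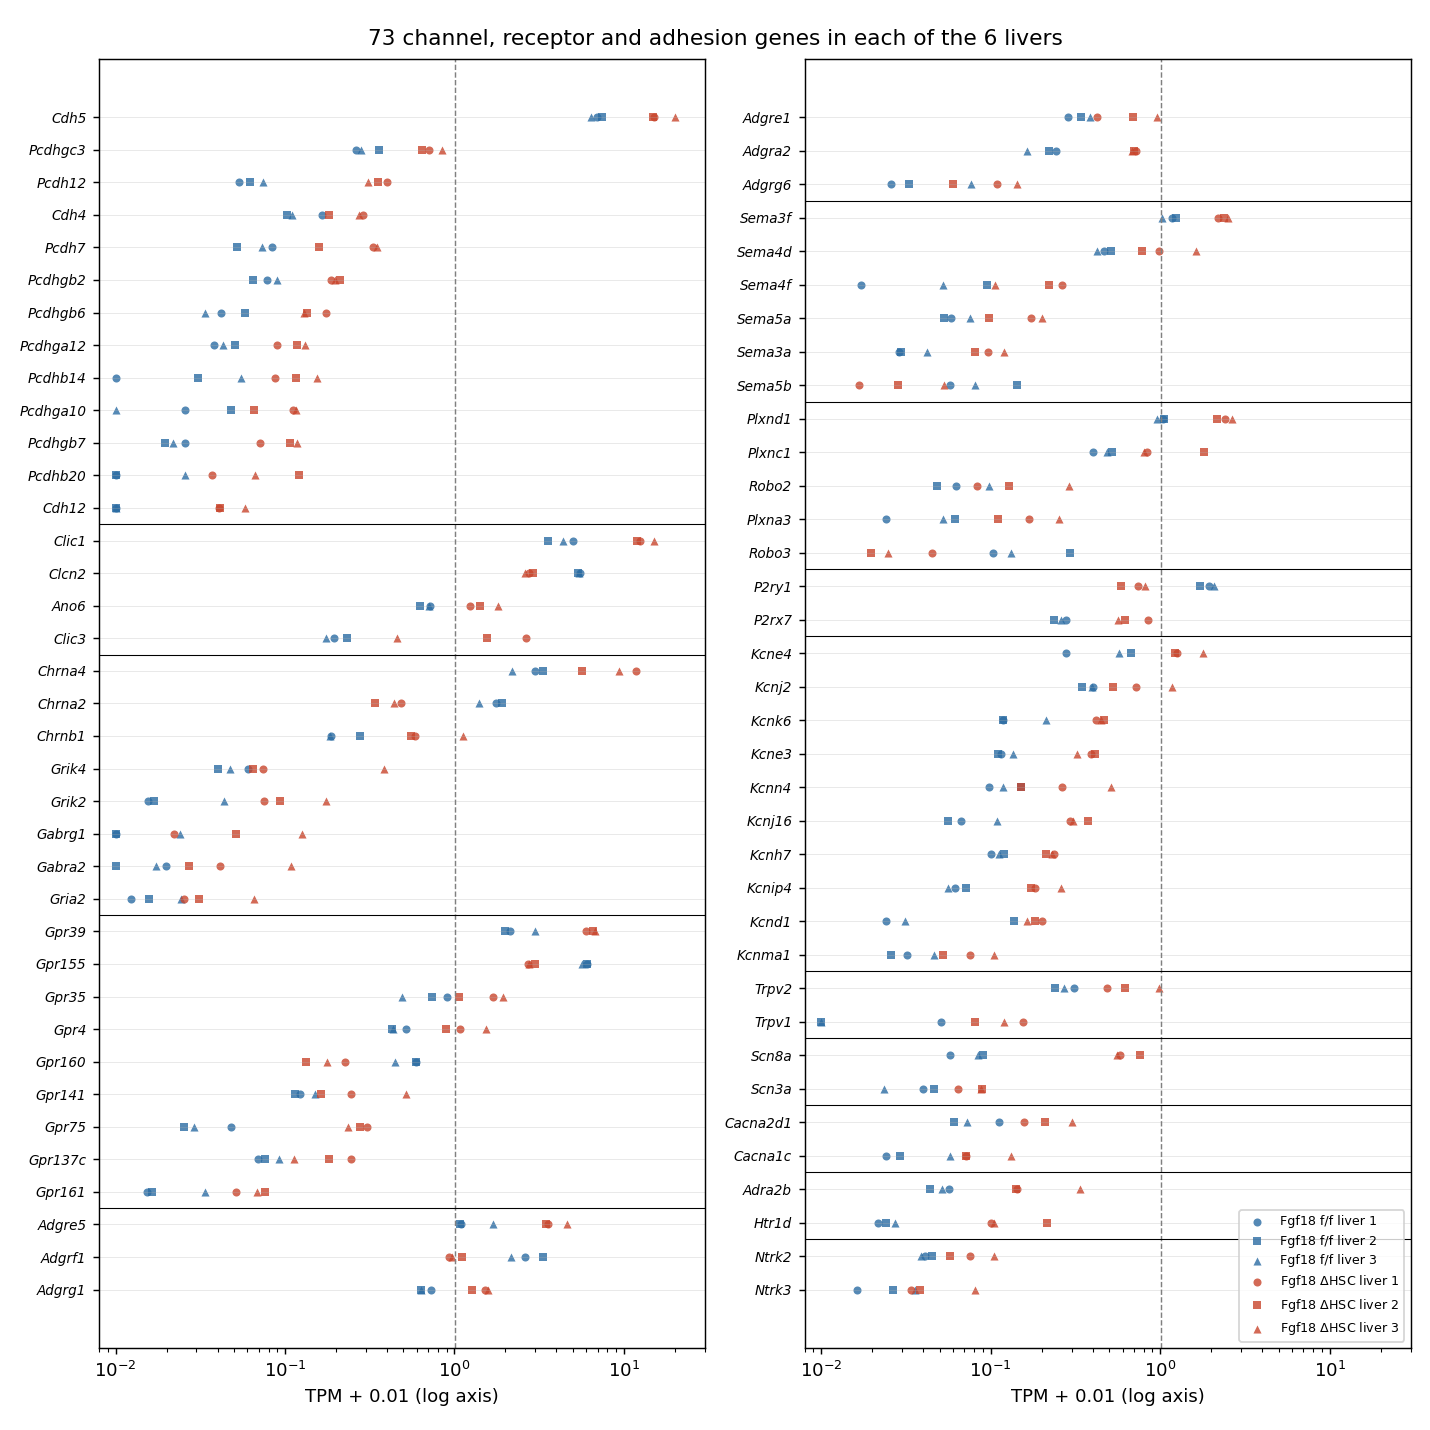
TPM + 0.01 (log axis) of 73 of the 76 genes in each of the 6 livers, grouped by family and ordered by level within it, with Fgf18 f/f livers in blue and Fgf18△HSC livers in red. Points left of the dashed line lie under 1 TPM. Blue lies left of red in most rows, and Chrna2, P2ry1, Gpr155, Clcn2 and Adgrf1 are the drawn rows with Fgf18 f/f values above 1 TPM in which the order is turned.

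The windows around the annotated start sites of 4 genes are printed to show what sequence lies upstream of genes that moved. RefSeq windows of 300 bases around each start, on GRCm38.p6 and mostly upstream, were found for 53 of the 76 genes, 72 windows in all. They were searched on both strands for TGACNNNGC, the core of the antioxidant response element bound by Nrf2, which the study follows in these livers, and for CACGTG, the E-box. TGACNNNGC stood in 15.3% of the 72 windows and in 12.4% of all 32851 mouse windows. CACGTG stood in 5.56% and 7.15%. Among genes called higher 8 of 33 windows held TGACNNNGC, and among those called lower 1 of 5. The windows of Scn8a (chr15:100870395-100870694, + strand, the first of its pair of annotated starts), Gpr75 (chr11:30885108-30885407, + strand), Kcne4 (chr1:78816661-78816960, + strand) and Gpr160 (chr3:30855700-30855999, + strand) were chosen after the values were seen: Scn8a and Gpr75 rose most in fold among those with a match, Kcne4 held both motifs, overlapping by 2 bases, and Gpr160 was the gene called lower with a match. Capitals mark the matches, and that of Gpr160 lies on the minus strand.
Scn8a: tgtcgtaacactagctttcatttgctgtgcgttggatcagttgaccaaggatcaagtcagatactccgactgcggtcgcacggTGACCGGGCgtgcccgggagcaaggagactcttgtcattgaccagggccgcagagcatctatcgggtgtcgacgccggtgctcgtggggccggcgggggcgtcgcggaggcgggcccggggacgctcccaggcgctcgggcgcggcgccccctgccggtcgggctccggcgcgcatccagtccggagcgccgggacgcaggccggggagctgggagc
Gpr75: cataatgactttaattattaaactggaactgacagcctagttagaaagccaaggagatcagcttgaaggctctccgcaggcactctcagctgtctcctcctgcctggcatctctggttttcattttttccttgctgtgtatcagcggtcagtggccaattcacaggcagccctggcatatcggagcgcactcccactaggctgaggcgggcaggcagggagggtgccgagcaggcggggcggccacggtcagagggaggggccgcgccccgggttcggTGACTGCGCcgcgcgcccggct
Kcne4: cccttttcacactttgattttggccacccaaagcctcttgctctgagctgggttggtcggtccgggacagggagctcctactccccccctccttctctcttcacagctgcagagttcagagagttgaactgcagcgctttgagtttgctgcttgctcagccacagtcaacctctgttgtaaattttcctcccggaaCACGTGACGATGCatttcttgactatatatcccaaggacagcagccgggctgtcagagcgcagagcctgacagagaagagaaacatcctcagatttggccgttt
Gpr160: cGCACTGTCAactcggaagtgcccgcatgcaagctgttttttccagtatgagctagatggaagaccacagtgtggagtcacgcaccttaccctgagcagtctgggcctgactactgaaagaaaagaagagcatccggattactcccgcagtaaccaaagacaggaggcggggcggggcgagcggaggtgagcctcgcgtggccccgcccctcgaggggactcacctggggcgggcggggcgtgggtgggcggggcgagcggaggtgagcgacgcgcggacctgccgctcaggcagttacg
The other window of Scn8a, at chr15:100936021-100936320, held neither motif. A match is a string of letters and no evidence of binding, and genes with and without it moved.

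All 10 potassium channel genes were higher in Fgf18△HSC livers, all but Kcnj2 also in rescaled livers, and 4 of them rose, with log2 fold changes from 0.42 to 1.39. Called were 40% of the family, beside 71.7% of all listed genes and 55.4% of those under 1 TPM. None reached a mean of 1 TPM over the 6 livers. Positions here and below are those of GRCm38. The most abundant, Kcne4 (chr1:78816758-78820028), encodes a single-pass auxiliary subunit that damps voltage-gated channels. It had 0.267, 0.659 and 0.564 TPM across Fgf18 f/f livers against 1.25, 1.21 and 1.77 TPM across Fgf18△HSC livers, with a log2 fold change of 1.39 (SE 0.30, adjusted p = 0.0029 by limma). The first Fgf18 f/f liver was the lowest, and the groups did not overlap. Kcne3, another subunit of this kind that keeps an epithelial channel open, rose by 1.14 on the log2 scale. Kcnj16, an inward rectifier of epithelia, rose by 1.32, and Kcnk6, a background leak channel, by 1.18. The channels opened by calcium were not called: Kcnn4, known from red cells and T cells, had a log2 fold change of 0.82 and Kcnma1, the large-conductance channel of smooth muscle, one of 0.42. Kcnj2, the classical inward rectifier, stood at 0.86 and was the 1 potassium channel gene whose direction turned in rescaled livers, at -0.01. Kcnh7, a voltage-gated channel of the Erg group, Kcnd1, a channel of transient outward current, and Kcnip4, a calcium sensor bound to such channels, had log2 fold changes of 0.65, 0.89 and 0.94 and were not called.

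The sodium channel pore gene Scn8a (chr15:100869858-101045938, + strand), the principal channel of axon initial segments, had the second largest rise of the set. It had 0.0474, 0.0797 and 0.0740 TPM across Fgf18 f/f livers against 0.572, 0.747 and 0.545 TPM across Fgf18△HSC livers, with a log2 fold change of 2.11 (SE 0.21, adjusted p = 7.08e-05 by limma). The lowest Fgf18△HSC liver lay far above the highest Fgf18 f/f liver. In reads it had 20, 28 and 21 reads across Fgf18 f/f livers against 187, 180 and 170 reads across Fgf18△HSC livers. In rescaled livers it was still called, at 1.52 (adjusted p = 0.00033 by limma). The first of its start windows is printed above. Scn3a, a pore gene best known from embryonic brain, was higher by a log2 fold change of 0.43 without being called. Both sodium channel genes stayed under 1 TPM in every liver.

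Neither of the calcium channel genes was called. Cacna2d1, the auxiliary subunit that brings pores to the membrane and binds gabapentin, had 0.102, 0.0506 and 0.0626 TPM across Fgf18 f/f livers against 0.148, 0.2003 and 0.293 TPM across Fgf18△HSC livers, with a log2 fold change of 0.85 (SE 0.23, adjusted p = 0.00744 by limma). Its groups did not overlap, and the third Fgf18△HSC liver was the highest. Cacna1c, the pore of the L-type channel of heart and smooth muscle, had a log2 fold change of 0.51. Of the TRP cation channels, Trpv2 (chr11:62574486-62600515) rose, with 0.300, 0.230 and 0.260 TPM across Fgf18 f/f livers against 0.473, 0.613 and 0.969 TPM across Fgf18△HSC livers, with a log2 fold change of 1.07 (SE 0.27, adjusted p = 0.00526 by limma). Again the third Fgf18△HSC liver stood highest, and without it, or without the second Fgf18 f/f liver, the gene was not called. Trpv1, the capsaicin receptor, had a log2 fold change of 0.88 and was not called. It had 4, 0 and 0 reads across Fgf18 f/f livers against 11, 4 and 8 reads across Fgf18△HSC livers, a ratio of 6.91 (95% exact binomial interval 2.36 to 27.5) that covers counting error only. Reads per library are here scaled by what 1 read was worth in that library.

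The chloride channel and anoctamin genes held some of the most abundant members, with 3 called higher and 1 lower without a call. That made 75% called, beside 71.7% of all listed genes. Clic1 (chr17:35049966-35058749), an intracellular chloride channel protein of many cell types including macrophages, had 5.004, 3.57 and 4.35 TPM across Fgf18 f/f livers against 12.4, 11.9 and 15.03 TPM across Fgf18△HSC livers. It rose from 4.31 ± 0.719 to 13.1 ± 1.68 TPM (mean ± SD, n = 3 livers each), with a log2 fold change of 1.59 (SE 0.16, adjusted p = 7.77e-05 by limma). No Fgf18△HSC liver came near the Fgf18 f/f livers. Clic3 (chr2:25456838-25458776) had the largest rise of the set and also the widest scatter, with 0.185, 0.222 and 0.165 TPM across Fgf18 f/f livers against 2.62, 1.55 and 0.449 TPM across Fgf18△HSC livers, with a log2 fold change of 2.22 (SE 0.52, adjusted p = 0.0038 by limma). The third Fgf18△HSC liver was the lowest here, unlike in most genes of the set, and still lay above every Fgf18 f/f liver. Ano6, the calcium-activated scramblase that exposes phosphatidylserine on platelets and other cells, had 0.706, 0.618 and 0.701 TPM across Fgf18 f/f livers against 1.23, 1.41 and 1.79 TPM across Fgf18△HSC livers, with a log2 fold change of 1.01 (SE 0.19, adjusted p = 0.0015 by limma). It lay close to the limit of 1 and was not called when the second Fgf18 f/f or the third Fgf18△HSC liver was left out. Clcn2 (chr16:20702964-20717746), a chloride channel opened by hyperpolarisation, had 5.49, 5.33 and 5.45 TPM across Fgf18 f/f livers against 2.75, 2.90 and 2.61 TPM across Fgf18△HSC livers. The contrast was tight and went downwards, with a log2 fold change of -0.95 (SE 0.12, adjusted p = 0.000215 by limma), but its fold change stopped short of the limit of 1. In rescaled livers it passed, at -1.97 (adjusted p = 5.41e-06 by limma).

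Monoamine receptors answer adrenaline, noradrenaline and serotonin. Adra2b, an alpha-2 adrenergic receptor that lowers cyclic AMP, rose by 1.02 on 5, 3 and 3 reads across Fgf18 f/f livers against 11, 8 and 26 reads across Fgf18△HSC livers, and was not called without the second Fgf18 f/f liver or the third Fgf18△HSC liver. Htr1d, a serotonin receptor of the same inhibitory class, had 1, 1 and 1 reads across Fgf18 f/f livers against 6, 10 and 6 reads across Fgf18△HSC livers and a log2 fold change of 0.97. Its ratio on reads was 8.81 (95% exact binomial interval 2.65 to 46.0), and it was not called.

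The nucleotide receptors divided. P2ry1 (chr3:61002795-61008982), which answers ADP through calcium release, had 1.92, 1.72 and 2.07 TPM across Fgf18 f/f livers against 0.730, 0.580 and 0.801 TPM across Fgf18△HSC livers. It fell, with a log2 fold change of -1.32 (SE 0.18, adjusted p = 0.000319 by limma), and its highest Fgf18△HSC liver lay under its lowest Fgf18 f/f liver by more than the spread of either group. Exons of an antisense RNA, Gm37035, cover 23.1% of the exon bases of P2ry1. That RNA had 1.67, 1.02 and 1.11 TPM across Fgf18 f/f livers against 0.449, 0.274 and 0.494 TPM across Fgf18△HSC livers, with a log2 fold change of -1.43 (SE 0.27, adjusted p = 0.00131 by limma), and whether the counting separated the strands is not given in the sources used here. P2rx7, the channel gated by high extracellular ATP on macrophages and other cells, rose by 1.12, from 0.226 to 0.269 TPM in the Fgf18 f/f livers to 0.550 to 0.840 TPM in the Fgf18△HSC livers, and was not called without the first Fgf18△HSC liver.

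Nicotinic acetylcholine receptor subunits moved in opposite directions. Chrna4 (chr2:181018380-181043546), an alpha subunit of the main brain receptor, had 2.99, 3.32 and 2.18 TPM across Fgf18 f/f livers against 11.8, 5.63 and 9.37 TPM across Fgf18△HSC livers. It rose from 2.83 ± 0.586 to 8.93 ± 3.11 TPM (mean ± SD, n = 3 livers each), with a log2 fold change of 1.58 (SE 0.28, adjusted p = 0.000991 by limma). Chrna2 (chr14:66135039-66152948), another neuronal alpha subunit, had 1.75, 1.90 and 1.38 TPM across Fgf18 f/f livers against 0.471, 0.328 and 0.427 TPM across Fgf18△HSC livers. It fell, with a log2 fold change of -1.80 (SE 0.21, adjusted p = 0.000134 by limma), and its mean was 4.09 times as high in Fgf18 f/f livers. The groups of both genes were apart, while the Fgf18△HSC livers of Chrna4 differed among themselves by more than those of Chrna2. Chrnb1, the beta subunit of the muscle receptor, rose by 1.41, with the third Fgf18△HSC liver, at 1.12 TPM, above the other two, at 0.543 and 0.571 TPM. In rescaled livers Chrna4 stood at 0.57 (adjusted p = 0.109 by limma) and Chrna2 at -2.74 (adjusted p = 4.16e-06 by limma).

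The glutamate and GABA receptor subunits were all higher and none was called. Grik4 and Grik2, kainate receptor subunits, had log2 fold changes of 0.72 and 0.81, Gria2, the AMPA receptor subunit that blocks calcium entry, one of 0.27, and the GABA-A receptor subunits Gabra2 and Gabrg1 0.46 and 0.53. The GABA-A subunits rested on a handful of reads. Gabrg1 had 0, 0 and 2 reads across Fgf18 f/f livers against 2, 5 and 18 reads across Fgf18△HSC livers, a ratio of 15.02 (95% exact binomial interval 3.75 to 131). Gabra2 had 2, 0 and 1 reads across Fgf18 f/f livers against 5, 2 and 15 reads across Fgf18△HSC livers, a ratio of 8.81 (95% exact binomial interval 2.65 to 46.0). The third Fgf18△HSC liver alone held most of the reads of Gabrg1 and Gabra2. For Grik4, whose values were 0.0501, 0.0301 and 0.0372 TPM across Fgf18 f/f livers against 0.0647, 0.0549 and 0.373 TPM across Fgf18△HSC livers, the same liver stood far above the other two.

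Among the adhesion G protein-coupled receptors 3 rose and 1 fell, 66.7% called beside 71.7% of all listed genes. Adgre5 (chr8:83723251-83741326), known as CD97 and carried by leukocytes, had 1.08, 1.06 and 1.67 TPM across Fgf18 f/f livers against 3.54, 3.45 and 4.59 TPM across Fgf18△HSC livers, with a log2 fold change of 1.55 (SE 0.21, adjusted p = 0.000311 by limma). Exons of other genes, among them Ddx39 on the opposite strand, cover 24.6% of its exon bases. Adgrg1 (chr8:94974751-95014217), known as GPR56, rose less, with 0.717, 0.621 and 0.625 TPM across Fgf18 f/f livers against 1.503, 1.27 and 1.58 TPM across Fgf18△HSC livers, with a log2 fold change of 1.04 (SE 0.18, adjusted p = 0.000877 by limma), and was not called without the third Fgf18△HSC liver. Adgra2, a co-receptor of Wnt signalling in brain endothelium, rose by 1.41, its Fgf18△HSC livers lying between 0.674 and 0.710 TPM. Adgrf1 (chr17:43270329-43324737), also GPR110, went the other way, with 2.61, 3.31 and 2.15 TPM across Fgf18 f/f livers against 0.913, 1.10 and 0.958 TPM across Fgf18△HSC livers. It fell from 2.69 ± 0.585 to 0.992 ± 0.0999 TPM (mean ± SD, n = 3 livers each), with a log2 fold change of -1.34 (SE 0.19, adjusted p = 0.000401 by limma). Adgre1, the F4/80 antigen of macrophages, had a log2 fold change of 0.82, which turned to -0.03 in rescaled livers, and Adgrg6, needed for myelination, one of 0.52 with overlapping groups. Neither was called.

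Of the 9 receptors named only by a Gpr number 4 rose, 2 fell and 3 were higher without a call. Called were 66.7% of them, beside 71.7% of all listed genes. Gpr39 (chr1:125676995-125873862), a zinc-sensing receptor, had 2.13, 1.98 and 2.96 TPM across Fgf18 f/f livers against 5.95, 6.60 and 6.74 TPM across Fgf18△HSC livers, with a log2 fold change of 1.43 (SE 0.17, adjusted p = 0.000169 by limma). All its Fgf18△HSC livers lay near each other and above the Fgf18 f/f livers. Exons of Lypd1 on the opposite strand cover 39.9% of the exon bases of Gpr39, and Lypd1 had 0.605, 0.542 and 0.797 TPM across Fgf18 f/f livers against 1.51, 1.59 and 1.90 TPM across Fgf18△HSC livers, with a log2 fold change of 1.25 (SE 0.20, adjusted p = 0.000636 by limma). Gpr155 (chr2:73341506-73386572), a lysosomal cholesterol sensor, had 6.01, 6.06 and 5.64 TPM across Fgf18 f/f livers against 2.71, 2.98 and 2.73 TPM across Fgf18△HSC livers. It fell, with a log2 fold change of -1.05 (SE 0.12, adjusted p = 0.000143 by limma), with little scatter in either group. Gpr160 (chr3:30855950-30897192) had 0.583, 0.584 and 0.433 TPM across Fgf18 f/f livers against 0.217, 0.124 and 0.167 TPM across Fgf18△HSC livers. It fell too, from 0.534 ± 0.0867 to 0.169 ± 0.0464 TPM (mean ± SD, n = 3 livers each), with a log2 fold change of -1.24 (SE 0.22, adjusted p = 0.00118 by limma). Its start window is printed above. Gpr75 (chr11:30885358-30893729), whose window is printed as well, had 3, 1 and 1 reads across Fgf18 f/f livers against 18, 12 and 13 reads across Fgf18△HSC livers, a ratio of 10.3 (95% exact binomial interval 4.10 to 33.4). Its values were 0.0383, 0.0153 and 0.0190 TPM across Fgf18 f/f livers against 0.297, 0.268 and 0.225 TPM across Fgf18△HSC livers, with a log2 fold change of 1.55 (SE 0.18, adjusted p = 0.00013 by limma). The groups of Gpr75 did not overlap, as in 96.3% of all listed genes. In rescaled livers the gene stayed called, at 1.17 (adjusted p = 0.000794 by limma). Gpr4, a proton-sensing receptor of endothelium, had 0.505, 0.420 and 0.424 TPM across Fgf18 f/f livers against 1.07, 0.886 and 1.53 TPM across Fgf18△HSC livers, with a log2 fold change of 1.17 (SE 0.23, adjusted p = 0.00178 by limma). Gpr35, a receptor of gut and immune cells, had 0.895, 0.723 and 0.482 TPM across Fgf18 f/f livers against 1.68, 1.06 and 1.91 TPM across Fgf18△HSC livers, with a log2 fold change of 1.04 (SE 0.28, adjusted p = 0.00779 by limma). Both were highest in the third Fgf18△HSC liver and were not called without it, and Gpr35 was also lost without the third Fgf18 f/f or the first Fgf18△HSC liver. Gpr141, Gpr137c and Gpr161, the last a brake on Hedgehog signalling in cilia, had log2 fold changes of 0.77, 0.65 and 0.47.

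All 13 cadherin and protocadherin genes were higher and 4 rose, 30.8% called beside 71.7% of all listed genes. Cdh5 (chr8:104101625-104144511), VE-cadherin of endothelial junctions, was the single gene of the set with a mean above 10 TPM. It had 6.96, 7.44 and 6.37 TPM across Fgf18 f/f livers against 15.05, 14.8 and 20.02 TPM across Fgf18△HSC livers. The values rose from 6.92 ± 0.539 to 16.6 ± 2.93 TPM (mean ± SD, n = 3 livers each), with a log2 fold change of 1.24 (SE 0.15, adjusted p = 0.000159 by limma), 2.40 times as high by the means. In rescaled livers its log2 fold change was 0.22 (adjusted p = 0.312 by limma), and it was not called. Pcdh12 (chromosome 18, 38267089 to 38284402), a protocadherin of endothelium, rose by 1.54, from 0.0432 to 0.0642 TPM up to 0.300 to 0.390 TPM, and stayed called in rescaled livers, at 1.02 (adjusted p = 0.00191 by limma). Pcdh7 rose by 1.17, with 21.1% of its exon bases under exons of other genes. Cdh4, R-cadherin of retina and kidney, had a log2 fold change of 0.65 and was not called. Cdh12, of brain, had 0, 0 and 0 reads across Fgf18 f/f livers against 4, 3 and 6 reads across Fgf18△HSC livers. Against a floor of 3 reads per liver the Fgf18△HSC livers were at least 1.68-fold higher.
The other 8 genes of this group were clustered protocadherins, which neurons combine as a code of surface identity. They lay between 37447656 and 37841873 on chromosome 18 of GRCm38: Pcdhb14 and Pcdhb20 of the beta cluster and Pcdhga10, Pcdhga12, Pcdhgb2, Pcdhgb6, Pcdhgb7 and Pcdhgc3 of the gamma cluster. All were higher, with log2 fold changes from 0.60 to 1.07, and all were apart between the groups. Of all listed genes 96.3% were apart. Higher were 96.6% of all listed genes under 0.1 TPM and 82.8% of those from 0.1 to 1 TPM. Pcdhgc3 alone was called (1.07), and was not called when the first Fgf18 f/f or the third Fgf18△HSC liver was left out. The gamma genes share their last exons, and from 38.1% (Pcdhga12) to 100% (Pcdhga10) of their exon bases are also bases of other genes. For Pcdhgc3 the share was 66.9%. How the counting divided such reads is not given in the sources used here, so these genes need not be separate rises. Pcdhb20, which does not share those exons, had 0, 0 and 1 reads across Fgf18 f/f livers against 2, 6 and 4 reads across Fgf18△HSC livers, a ratio of 14.4 (95% exact binomial interval 2.13 to 616). With so few reads the gene was in the list only because these livers differed, and the interval does not allow for that.

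Guidance cues and their receptors lay mostly higher in Fgf18△HSC livers. Among the semaphorins Sema4d, a membrane-bound ligand of leukocytes and platelets that engages plexin B receptors, rose, with 0.458, 0.501 and 0.413 TPM across Fgf18 f/f livers against 0.972, 0.771 and 1.61 TPM across Fgf18△HSC livers, with a log2 fold change of 1.07 (SE 0.27, adjusted p = 0.00543 by limma). The third Fgf18△HSC liver was the highest, and without it the gene was not called. Sema3f (chr9:107681500-107710475), a secreted ligand that repels axons and vessels, had 1.16, 1.24 and 1.01 TPM across Fgf18 f/f livers against 2.18, 2.37 and 2.49 TPM across Fgf18△HSC livers. It stood just under the limit of 1, with a log2 fold change of 0.98 (SE 0.16, adjusted p = 0.000615 by limma), and it was called when either of the first and second Fgf18 f/f livers or the first Fgf18△HSC liver was left out. In rescaled livers its log2 fold change was 0.01. Sema3a, the prototype of the secreted class, had a log2 fold change of 0.61, Sema4f 0.98, Sema5a 0.68 and Sema5b, the single lower semaphorin, -0.57, and none of these was called. No Slit gene, whose products bind the Robo receptors, was in the list.

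On the receptor side, Plxnd1 (chr6:115954811-115995005), a plexin of endothelium, had 1.03, 1.05 and 0.951 TPM across Fgf18 f/f livers against 2.39, 2.15 and 2.64 TPM across Fgf18△HSC livers, with a log2 fold change of 1.16 (SE 0.16, adjusted p = 0.000273 by limma). Its groups were tight and apart. Plxnc1, the receptor of a leukocyte semaphorin, had 0.394, 0.511 and 0.479 TPM across Fgf18 f/f livers against 0.826, 1.80 and 0.793 TPM across Fgf18△HSC livers, with a log2 fold change of 1.06 (SE 0.31, adjusted p = 0.0109 by limma). Here the second Fgf18△HSC liver stood above the other two, and without it, or without the first Fgf18 f/f liver, the gene was not called. Plxna3, which partners neuropilins, had a log2 fold change of 0.95 and Robo2 one of 0.62, neither called. Robo3, which lets commissural axons cross the midline, fell by 1.09 on the log2 scale, from 0.0927 to 0.282 TPM in Fgf18 f/f livers to 0.00956 to 0.0352 TPM in Fgf18△HSC livers, and was not called without the second Fgf18 f/f liver. The neurotrophin receptors Ntrk2 and Ntrk3, the tyrosine kinases that bind brain-derived neurotrophic factor and neurotrophin-3, were both under 0.1 TPM in mean level. Ntrk2, the more abundant of the pair, had 0.0310, 0.0349 and 0.0288 TPM across Fgf18 f/f livers against 0.0650, 0.0475 and 0.0943 TPM across Fgf18△HSC livers, with a log2 fold change of 0.35 (SE 0.16, adjusted p = 0.06 by limma), and Ntrk3 had a log2 fold change of 0.27. No neurexin or neuroligin gene was in the list.

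One Fgf18△HSC liver stood out. The third had the highest value of the 3 in 46 of the 76 genes (60.5%), the first in 16 and the second in 14. Among the other protein-coding genes the third was highest in 40.3%, and there the share went with level, from 59.5% under 0.1 TPM and 48.2% between 0.1 and 1 TPM to 36.2% between 1 and 10 TPM and 14.5% at 10 TPM or more. In the set it was 69.2%, 50% and 66.7% in the first 3 of these classes. Among long genes the share was higher: of the 27 genes of the set that span over 100 kb from first to last exon, the third liver was highest in 21 (77.8%), and of the 49 shorter genes in 25 (51.0%). In the other protein-coding genes these shares were 49.0% and 38.9%. Long genes made up 35.5% of the set and 14.2% of the other protein-coding genes, and those of the set were also low, with a median of 0.102 TPM against 0.286 TPM in its shorter genes. Level and span were not separated. The third liver also had the largest scale factor over the listed genes, 1.36 beside 1.21 for the first and 1.12 for the second. These shares are on the deposited scale and were not counted in rescaled livers. By the ratio of TPM + 0.01 to the mean of the other Fgf18△HSC livers, Grik4, Gabra2 and Robo2 stood furthest above it among the long genes of the set. Without the third liver 28 genes of the set were called, 26 of them among the 34 called with all livers. The genes lost were Trpv2, Adgrg1, Pcdhgc3, Ano6, Sema4d, Adra2b, Gpr35 and Gpr4, and Sema4f and Htr1d were gained. No gene changed direction when any of the 6 livers was left out. What set the third liver apart was not tested.

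**Figure D4:**
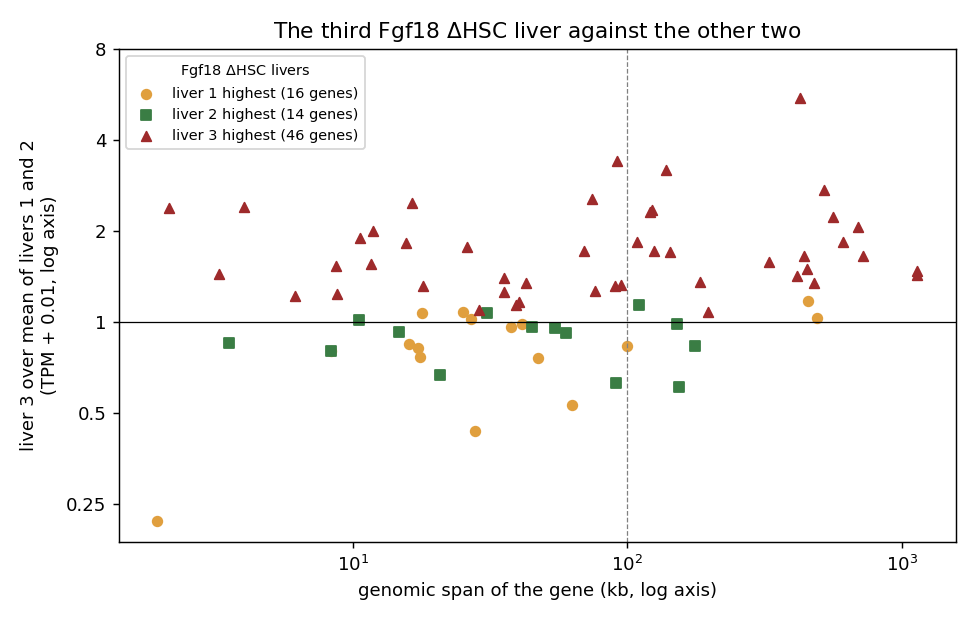
The third Fgf18△HSC liver over the mean of the first and second (TPM + 0.01, log axis) against the genomic span of the gene (kb, log axis) for the 76 genes, coloured by which of the 3 livers was highest. The third was highest in 46 genes, in 21 of the 27 to the right of the dashed line at 100 kb, and Clic3 is the lowest point, at the far left.

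Genes that work beside these families were counted in 6 lists drawn up by symbol. For comparison, 71.7% of all listed genes were called, 55.4% of those under 1 TPM and 92% of those at 1 TPM or more. Calcium stores and pumps held 5 listed genes, all higher, with 3 called. The plasma membrane calcium pumps Atp2b4 and Atp2b2 led them with log2 fold changes of 1.32 and 1.75. Of the gap junction and pannexin genes 2 were listed, Gjc3 and Gjc1, higher at 0.81 and 0.88 without a call. The 10 genes that handle nucleotides, adenosine and cyclic nucleotides divided like their receptors, with 6 higher and 4 lower, 1 called higher and 4 lower. Entpd5, a nucleotide diphosphatase of the endoplasmic reticulum, fell from 60.7 to 63.7 TPM in Fgf18 f/f livers to 23.6 to 24.1 TPM in Fgf18△HSC livers. Pde4b, a phosphodiesterase that ends cyclic AMP signals, fell from 30.1 to 30.8 TPM to 7.88 to 9.13 TPM, with a log2 fold change of -1.83 (SE 0.11, adjusted p = 1.33e-05 by limma). Other transmitter genes numbered 3. Chrm3, the muscarinic receptor that releases calcium, rose by 1.44, the orphan transporter gene Slc6a16 had a log2 fold change of -1.17 and was called lower, and the third gene was higher without a call. The 6 other guidance and neurotrophic genes were all higher and 2 were called, the ephrin ligand gene Efna3 at 1.04 and the neurotrophin receptor gene Ngfr at 1.20. The 7 further junction genes were all called, 4 higher and 3 lower, and 6 of them had a mean of 1 TPM or more. Cldn14 fell from 80.3 to 85.5 TPM to 27.1 to 39.4 TPM, and Cldn1 rose from 10.5 to 12.8 TPM to 27.2 to 31.1 TPM.

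Markers of liver cell types in the same list also differed between the groups. The listed markers of hepatocytes, 2 of 9, were both lower, Cyp2e1 at -1.67 and Cyp3a11 at -1.47, and their sum was 2472 to 2599 TPM in Fgf18 f/f and 717 to 1007 TPM in Fgf18△HSC livers. Those of hepatic stellate cells, 8 of 11, were all higher, led by Rgs5 and Acta2, with sums of 2.76 to 4.20 and 9.80 to 14.1 TPM. Those of endothelial cells, 4 of 8 with Cdh5 among them and Lyve1 the most abundant, were all higher, at 18.5 to 20.1 and 39.2 to 56.7 TPM. The endothelial members Pcdh12, Plxnd1, Gpr4 and Adgra2 were higher as well, as were 67 of the 76 genes, and Cdh5 is itself one of these markers. Those of macrophages and monocytes, 3 of 8, Cd68, Ccr2 and Adgre1, were all higher, at 4.41 to 5.65 and 15.0 to 21.5 TPM. Adgre5, P2rx7 and Clic1 were higher too, as most of the set was, and Adgre1 is itself one of the 76 genes. Platelet and erythroid markers, 4 of 8, were all higher, Hbb-bs and Hba-a1 most abundant, at 61.7 to 103 and 357 to 470 TPM. Neutrophil markers, 4 of 9, divided, with Csf3r higher and Ngp lower and the sums overlapping, at 15.9 to 19.4 and 10.4 to 27.7 TPM. Cholangiocyte markers, 5 of 6, were 4 higher and 1 lower, at 28.1 to 30.5 and 50.2 to 76.8 TPM. The most abundant were Spp1, which rose from a mean of 13.3 to 53.0 TPM, and Sox9, which fell from 14.6 to 7.04 TPM. Mesothelial and smooth muscle markers, 4 of 6, were 2 higher, Tagln and Myh11, and 2 lower, at 3.15 to 5.10 and 6.32 to 9.42 TPM. Of the nerve and Schwann cell markers 1 of 10 was listed, Tubb3, at 0.0400 to 0.0892 and 0.406 to 0.806 TPM. No marker of T, B or NK lymphocytes, 0 of 9, was listed. Of the listed markers and the genes of the 6 lists above, Adgre1 alone changed direction in rescaled livers. Most calls of higher genes were lost there, where Fgf18△HSC values are lowered by construction. Of all listed genes 43.6% were called in rescaled livers, beside 71.7% on the deposited scale. Endothelial markers went from 3 called higher to 0, stellate cell markers from 6 to 1, macrophage and monocyte markers from 2 to 1 and platelet and erythroid markers from 4 to 3. The junction genes went from 4 called higher to 0, the calcium stores and pumps from 3 to 1, and the guidance and neurotrophic genes from 2 to 0. The number called lower was as before in each of these lists. The part of cell numbers in the changes of the 76 genes was not tested.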

How the data were processed

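Per the labels, total RNA of 6 livers was made into stranded mRNA libraries. The submitters' processing notes name cutadapt 2.5, HISAT2 2.1.0 and featureCounts 1.6.3 with build mm10. The authors deposited 1 table of 3201 genes with a value per liver, which were taken as TPM: times exon length (GENCODE M21, 3196 genes matched) they were whole reads, within 0.02, for 92.2 to 92.6% of values under 5000 reads. The authors deposited their log2 fold changes and p-values beside these, and neither was used. Depth was recovered only as relative: 1 read on 1 kb was worth 0.0374, 0.0449 and 0.0555 TPM (Fgf18 f/f) and 0.0482, 0.0655 and 0.0505 TPM (Fgf18△HSC). In 70 of the 76 genes every liver gave whole reads, and reads are printed for these. Intervals and floors cover counting error only. They do not cover the selection of the genes for a difference between these same livers, so an interval away from 1 is no separate evidence.

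Here log2(TPM + 0.1) was fitted with limma 3.58.1 (R 4.3.3, eBayes with trend) over all 3201 genes, 3 livers against 3, with no filter. A gene was called at Benjamini-Hochberg adjusted p under 0.05 and absolute log2 fold change above 1. The adjustment ran over the listed genes alone and does not correct for their selection. Fold changes on this scale understate those of low genes. The fit was tested on simulated data. Most genes there did not differ, unlike in this preselected list, so that test cannot vouch for the calls made here. The labels do not say that the livers of a group came from separate mice, while the study calls its replicates independent, and p-values measure the spread between these livers. Livers were listed in the order 1, 2, 3.

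Liver values are given for genes whose mean reached 1 TPM in a group, the 5 largest called fold changes in each direction and the most abundant gene of each family, and at most 2 genes, the most abundant, of each of 6 related and 10 marker lists. Values of other genes beyond this were chosen after they were seen. Results of 3 of the 76 genes, though counted, are not reported here. The genes and lists were chosen with earlier results of these data known. Alternatives were the pseudocount, a level filter, rescaled livers, the variance model, coding genes alone, no fold limit, a replicate block and each liver left out.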

Additional observations from a re-analysis of the deposited data

How the results depend on the processing

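The 27 genes called higher became 5 with a pseudocount of 1 TPM, 59 with one of 0.01 TPM, 59 without the fold limit, 4 in livers rescaled by their median ratio, and 9 among the 16 genes whose overall mean reached 1 TPM. Fitted with limma-voom on recovered reads, an alternative chosen after seeing the data, they were 61 of 70. The 7 called lower became 1 with a pseudocount of 1 TPM and stayed between 5 and 9 under the other alternatives. In rescaled livers the groups were apart in 33 genes (43.4%) rather than 72, beside 61.9% of all listed genes. Leaving out each liver in turn gave 21 to 33 called higher, 6 to 7 called lower and 59 to 63 with a mean under 1 TPM. The last count was 52 with a limit of 0.5 TPM and 68 with one of 2 TPM. The pseudocount and the fold limit act by construction on genes near 0.1 TPM. The rescaling lowers Fgf18△HSC values by construction, as its factors came from a list in which most genes were higher. For the other changes the cause was not tested.

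A replicate block gave 27 called higher and 7 called lower, and changed no call. No pairing of livers by replicate number was seen: deviations of same-numbered livers correlated, across genes, at 0.0574, 0.00597 and 0.0307. With groups of 3 livers these values cannot exclude a pairing. For the 26 genes named by rule, 352 alternative values were computed, of which 299 kept their direction and side of the limits, 43 lost the call, 10 gained it and 0 changed direction. Of the 26 genes under 0.1 TPM 4 had under 10 reads in every liver. Groups of 3 were too small to be screened for outlying livers.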
